A study of Mus musculus with 58 samples.

Results

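Liver-only BMAL1 peaks beyond 10 kb are the entries of the authors' liver BMAL1 list that have no identical interval in their NIH3T3 BMAL1 list and lie more than 10000 bp from the start site of the annotated gene. This rule found 389 peaks of the 1254 in the liver BMAL1 list (31.0%, 95% Clopper-Pearson interval 28.5 to 33.7), of the 991 liver-only peaks, and of 3172 peaks in all 4 deposited lists. Both the identity of the intervals and the distance chose these peaks, so neither is a finding here. The gene named for each peak is the authors' annotation to a start site. At such distances it does not show which gene, if any, the site acts on, and no measurement of expression was used.

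BMAL1 (ARNTL) is the transcription factor that pairs with CLOCK or NPAS2 and drives the activating arm of the circadian clock. The pair binds E-box sequences, and its best known targets are the Per, Cry and Rev-erb genes, which it binds close to their start sites. Sites far from start sites are, as a class, candidates for enhancers, which act on promoters through looping of the chromatin. In the liver the clock is tied to feeding, and many genes of lipid, glucose and nitrogen metabolism have daily rhythms.

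The study compared circadian binding in mouse liver with that in NIH3T3 cells, an established mouse embryonic fibroblast line. The liver BMAL1 list comes from older liver libraries of zeitgeber time 6, counted in hours from lights on, which the authors processed again. No source used here gives the strain or age of those mice. The liver CLOCK list came from 1 sample that its label calls pooled, from C57/BL6 mice of 12 to 14 weeks kept in 12 h of light and 12 h of darkness, with no time of day given. The NIH3T3 lists belonged to 7 BMAL1 libraries taken 12 to 38 h after a 30 min pulse of 100 nM dexamethasone, which synchronises the cells' clocks, and to 6 CLOCK libraries taken at 18 to 38 h. The NIH3T3 BMAL1 list, against which liver-only was defined, carries 20 h in its name, and which of the 7 libraries it was called on is not stated. Liver is a mixture of cell types, and a peak can come from any of them. The lists gave positions but neither heights, scores nor values for single libraries. Replicate error therefore cannot be stated, and the read depth of a peak is unknown. Peaks are not replicates, so the intervals and tests given here speak for counting error alone.

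No genome of the build of the lists, mm9, was used here, so the letters of the distal peaks themselves are not shown. The data bear on a sequence where a gene with a distal peak also had a liver BMAL1 peak at its promoter. The promoters of 2 such genes are shown because a liver BMAL1 peak was annotated in the stretch (0610040J01Rik) or just before it (Pcx) and the canonical E-box CACGTG was found in it. They are from RefSeq, build GRCm38.p6, and hold the 250 bases before the start site, with the E-box in capitals. The Pcx stretch is chr19:4510222-4510471 and the 0610040J01Rik stretch is chr5:63812245-63812494, both on the plus strand of that build, and these positions cannot be set beside the mm9 positions used elsewhere.
Pcx: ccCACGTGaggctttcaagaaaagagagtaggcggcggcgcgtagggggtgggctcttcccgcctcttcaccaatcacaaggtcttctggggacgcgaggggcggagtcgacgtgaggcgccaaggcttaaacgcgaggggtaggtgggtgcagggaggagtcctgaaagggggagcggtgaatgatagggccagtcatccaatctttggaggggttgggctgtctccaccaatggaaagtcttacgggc
0610040J01Rik: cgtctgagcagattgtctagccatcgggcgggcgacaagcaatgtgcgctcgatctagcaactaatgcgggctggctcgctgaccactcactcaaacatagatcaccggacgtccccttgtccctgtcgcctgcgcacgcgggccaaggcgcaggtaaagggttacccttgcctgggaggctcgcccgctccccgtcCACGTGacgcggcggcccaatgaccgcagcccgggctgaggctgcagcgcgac

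In Pcx, which encodes pyruvate carboxylase, the E-box began 248 bases before the RefSeq start, and the authors placed a BMAL1 peak 262 bp before their start site. In 0610040J01Rik the E-box began 53 bases before the start and the peak lay 71 bp before it. The RefSeq and the authors' start sites may differ, and the table held a further Pcx promoter without the motif. Among genes with a distal peak and a liver promoter peak, 2 of 9 RefSeq promoters held CACGTG (22.2%, 2.81 to 60.0). Of the promoters of genes with a distal peak and no liver promoter peak, 11 of 255 held it (4.31%, 2.17 to 7.59). Of all RefSeq promoters in windows of the same 300 bases, 2349 of 32851 held it (7.15%), and of those of genes with a liver promoter peak and no distal peak, 161 of 464 did (34.7%, 30.4 to 39.2). The motif reads the same on both strands, RefSeq promoters were found for 192 of the 318 genes with a distal peak, and these shares are descriptions with no test. Of the 13 genes with both kinds of peak, Azin1, Dcaf13, Osbpl1a, Dgat2 and 4831426I19Rik had no entry in the promoter table.

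The distal peaks lay 10007 to 556576 bp from the annotated start site, with a median of 25925 bp and quartiles of 16287 and 52603 bp. Between 10 and 20 kb there were 141 peaks (36.2%), and a further 145 lay between 20 and 50 kb (37.3%). Another 60 lay between 50 and 100 kb, 30 between 100 and 200 kb and 13 beyond 200 kb. The peaks just above the limit were those of Ergic1 (10007 bp), 2900026A02Rik (10037 bp), Isyna1 (10172 bp), Gse1 (10280 bp) and 2010109I03Rik (10342 bp). Just below it lay those of 2700029M09Rik (9906 bp), an unnamed gene (9874 bp), Stxbp3a (9847 bp), Lhpp (9812 bp) and B230206L02Rik (9790 bp). The farthest peak was annotated to Plod2, a lysyl hydroxylase of collagen, and of the 10 farthest, 5 had no gene name and the other named genes were Maf, Cntn6, 3110082D06Rik and Skor2.

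The sign of the authors' distance followed the direction of the gene. In 84 pairs of peaks of the same gene that shared a start site, the sign matched the RefSeq strand within 3 bp, and in 0 it went against it. A further 43 pairs fitted neither direction and were taken as counted from different start sites. The pairs came from all peaks of both BMAL1 lists and not from distal peaks alone. Upstream of the start site lay 177 of 389 peaks (45.5%, 40.5 to 50.6), with a median distance of 26912 bp, and downstream lay 212, with a median of 25422 bp. The share upstream was not distinguished from an even split by a two-sided exact binomial test (p = 0.0846, adjusted over 7 tests 0.148). Whether the downstream peaks lay in introns, exons or past the end of the gene was not determined, as the lists hold no gene ends. The distances in the BMAL1 lists implied 838 start sites of genes of known strand. For 0 of the 389 peaks did such a site of another gene lie closer than the annotated one. These sites were derived from the authors' annotation itself and cover only genes with a BMAL1 peak. The 0 is therefore no independent check that the annotated gene is the nearest.

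**Figure D1:**
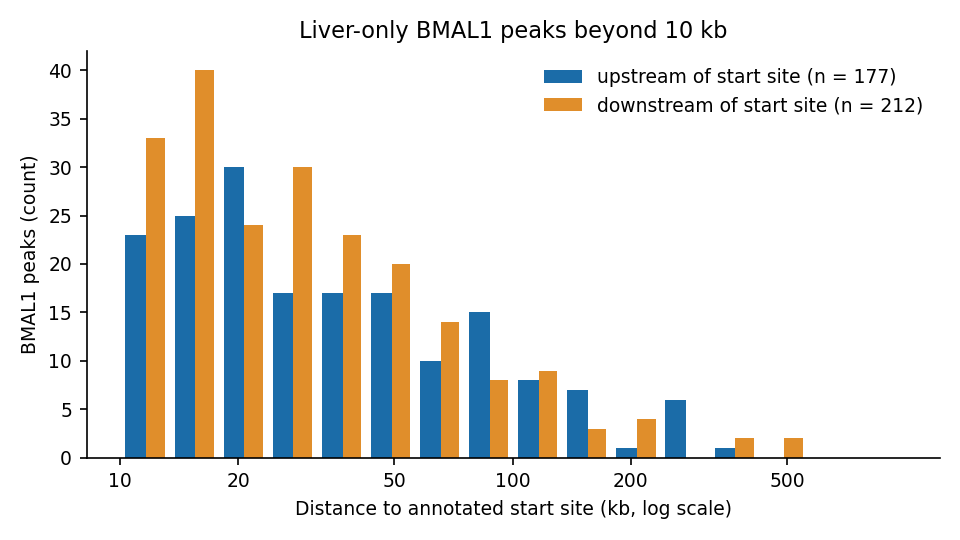
Counts of liver-only BMAL1 peaks beyond 10 kb by distance to the annotated start site (kb, log scale), with 177 upstream and 212 downstream peaks side by side in each bin. Most peaks lie within 50 kb on both sides. Between 10 and 20 kb there are 59 upstream and 82 downstream, and between 20 and 50 kb 65 and 80. The drawn bins are narrower than these ranges. Beyond 200 kb lie 13 peaks.

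Metabolic genes of the liver were among the annotated genes. In the list of lipid, cholesterol and bile acid genes there were 8 distal peaks at 6 genes, of 15 list genes with any liver BMAL1 peak (40%). Over all genes with a liver BMAL1 peak the share was 318 of 985 (32.3%), and no list was tested against it. Fabp1, the fatty acid binding protein of the liver, had its single liver peak 26924 bp upstream, at chr6:71122873-71122922. Acsl1, which activates long-chain fatty acids, had 2 peaks, 85966 and 56081 bp upstream, at chr8:47470405-47470454 and chr8:47500290-47500339, and a liver peak 7108 bp downstream of another start site. Dgat2, which makes triglyceride from diacylglycerol, had 2 peaks 13885 and 14531 bp downstream, at chr7:106317314-106317363 and chr7:106316668-106316717, beside a peak at 332 bp that was identical in the NIH3T3 list. Abcb4, the transporter that brings phosphatidylcholine into bile, had a peak 20562 bp upstream, and Pnpla3, a lipase of lipid droplets, had one 11512 bp upstream. St3gal5, which makes the ganglioside GM3, had one 43743 bp downstream. Each of these last 3 genes had no other BMAL1 peak in either list.

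In the glucose, glycogen and insulin list 4 of 13 genes with a liver BMAL1 peak had a distal one (30.8%), against 32.3% over all genes. Gys2, the glycogen synthase of the liver, had a peak 21407 bp downstream at chr6:142400198-142400247 and a nearer liver peak 1787 bp downstream. Pik3r1, the regulatory subunit of phosphoinositide 3-kinase, had one 94083 bp upstream at chr13:102632231-102632280, and a liver peak 2661 bp upstream of another start site. Pcx had one 23307 bp upstream of one start site, at chr19:4570988-4571037, while its peaks at 262 and 356 bp, identical in both BMAL1 lists, were counted from another start site. The nearest of these peaks lay 60802 bp from the distal one. The distal Pcx peak had no counterpart in the NIH3T3 list, in which the gene's 2 peaks were those near the start site.

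The amino acid, urea and nitrogen list had distal peaks at 2 of 7 genes with a liver BMAL1 peak (28.6%), against 32.3% over all genes. One was Arg1, the arginase of the urea cycle, 21129 bp upstream at chr10:24668381-24668430. The xenobiotic list had 2 of 7, namely Fmo5, a flavin monooxygenase (14232 bp downstream), and Slco1a1, an organic anion transporter (13799 bp upstream). In the hepatocyte list 3 of 33 genes had a liver BMAL1 peak at any distance. Of these, 2 had a distal one, Arg1 and Asgr2, a subunit of the asialoglycoprotein receptor (16636 bp upstream). Of 27 genes in the list of non-parenchymal and blood cell markers, 0 had a liver BMAL1 peak at any distance. In the fibroblast list 4 of 27 genes had a liver BMAL1 peak, and 3 of these had a distal one. They were Actn1, an actin cross-linker (41763 bp downstream), Cyr61, a matrix signalling protein (25019 and 28326 bp downstream), and Prrx1, a homeobox factor of mesenchyme (25360 bp upstream). In all, 985 genes had a liver BMAL1 peak, and the RefSeq promoters covered 27025 genes. The counts of marker genes with any liver peak, the 0 included, are therefore not read as results. A gene's place in a marker list says nothing of which cells gave the peak.

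The list of other transcription factors was the longest, with 85 genes, and held the most distal peaks, 12 in number. They stood at 10 of its 23 genes with a liver BMAL1 peak (43.5%), against 32.3% over all genes. Irf2bp2, a corepressor of IRF2, had 3, at 20816, 110452 and 142540 bp upstream, beside a liver peak 3084 bp downstream. Irf2 itself had 1, 65063 bp downstream. Bcl6, a zinc finger repressor, had a peak 132139 bp upstream, and Esrrg, an estrogen-related receptor, 134998 bp upstream. Klf13, Ets2 and Nr2f2 had peaks 13240 to 14241 bp downstream, Klf13 with a further liver peak at 6975 bp, and Nfia had one 11415 bp upstream. The cell cycle list had 2 of 7 genes, Ccnd1, which encodes cyclin D1 (116643 bp upstream), and the polo-like kinase Plk2 (60246 bp downstream).

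Of 12 core clock genes with a liver BMAL1 peak, 0 had a distal liver-only one. The rule leaves out distal peaks identical in the NIH3T3 list, such as an Hlf peak at 27255 bp. The 0 is thus no count of all distal peaks of these genes. Among 4 genes for bZIP factors of clock output, Hlf had one 12075 bp downstream at chr11:90231150-90231199 and Nfil3, a repressor at D-box sites, had one 87011 bp upstream at chr13:53163429-53163478 besides a liver peak 6205 bp downstream. Over all genes, 318 of the 985 with a liver BMAL1 peak (32.3%) had a distal peak. The 11 lists together held 37 distal peaks at 32 genes, 21 upstream and 16 downstream. No test was run on the lists, so a list's share above or below 32.3% is a description.

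**Figure D2:**
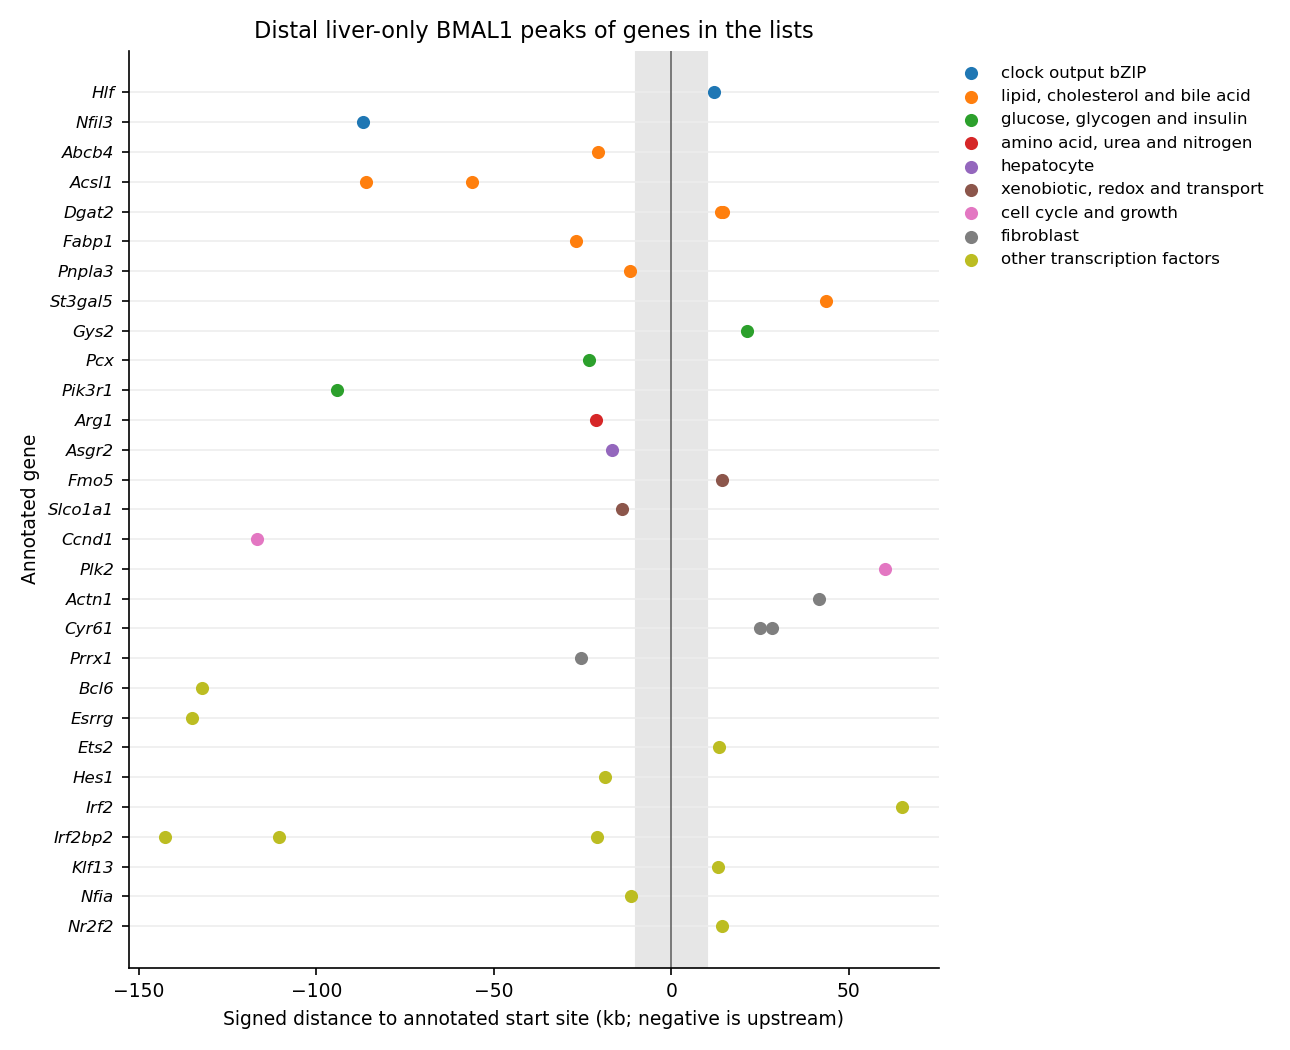
Signed distance (kb) from the start site for 34 distal peaks of 29 listed genes, 1 row a gene, coloured by list (Arg1 is drawn once, under the amino acid list). The grey band marks the 10 kb on either side that the rule leaves out. Peaks lie on both sides, from 142540 bp upstream (Irf2bp2) to 65063 bp downstream (Irf2).

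Most genes with a distal peak had no BMAL1 peak nearer to the start site. Of 318 genes, 289 (90.9%, 87.2 to 93.8) had no liver peak other than distal liver-only ones, and 288 of these also had no NIH3T3 peak, the exception being Hes1. The like share was not counted for other classes of peak. The whole liver list held 1254 peaks, unnamed ones included, and 985 genes, so few peaks per gene were usual in it. The 90.9% is thus not shown to be particular to distal peaks. Liver promoter peaks, within 1 kb of the start site, stood at 13 of the 318 genes, among them Dgat2, Pcx, Hlf, Azin1, Nr2f2 and Znrf2. Counted over peaks, 15 of 389 distal peaks (3.86%, 2.17 to 6.28) belonged to a gene with a liver promoter peak, against 5.76% of all liver BMAL1 peaks beyond 1 kb. Liver-only peaks 1 to 10 kb away did so in 14 of 262 cases (5.34%, 2.95 to 8.80). The odds ratio was 0.711, with an interval from 0.314 up to 1.62 (p = 0.439 in Fisher's exact test, two-sided, adjusted 0.512). A difference was thus not detected, and the interval allows ratios on both sides of 1. With promoters limited to 200 bp the comparison group also changed, to liver-only peaks 200 bp to 10 kb away. The counts were then 5 of 389 and 15 of 409, and the odds ratio was 0.342 (p = 0.0401 by the Fisher exact test, unadjusted). It is thus not the same comparison with a narrower promoter alone.

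In 7 of the 318 genes the NIH3T3 list also held a peak, and in all 7 a promoter peak. For Dgat2, Pcx, Znrf2 and 1810013L24Rik the promoter peaks were identical in both lists and the distal peak was in the liver list alone. For Osbpl1a the liver and NIH3T3 promoter peaks differed, at 137 bp and 4 bp, and its peaks were counted from 3 different start sites. Hlf had an NIH3T3 peak at 31 bp, liver peaks at 598, 9142 and 12075 bp, and a peak at 27255 bp in both lists, counted from 2 start sites. Hes1, a repressor induced by Notch, had NIH3T3 peaks at 44 and 34 bp and in liver the single peak 18659 bp upstream, at chr16:30045787-30045836. Over all distal peaks, 0 of 389 had an NIH3T3 BMAL1 peak centre within 500 bp, which allows a share of up to 0.771% at a limit of 3 counts (Clopper-Pearson upper bound 0.944%). Liver-only peaks 1 to 10 kb away also had 0 of 262, and all those at most 10 kb away had 10 of 602 (1.66%). The nearest NIH3T3 BMAL1 centre to any distal peak was 8601 bp away. Within 50 kb, 10 of 389 distal peaks had one (2.57%), against 56 of 602 liver-only peaks at most 10 kb away (9.30%). These shares were not tested, and the distance in the rule enters them. Peaks identical in the NIH3T3 list lay at a median of 171 bp from a start site. Of the 602 nearer liver-only peaks, 340 lay within 1 kb of one, so the contrast is not a finding about distal peaks. The rule removed identical intervals, which leaves a partner with shifted ends possible, but none was found.

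CLOCK, the partner of BMAL1, had a liver peak centre within 500 bp of 9 of the 389 distal peaks (2.31%, 1.06 to 4.35), against 4.31% of all liver BMAL1 peaks. Where CLOCK was present it was centred closely, at 2 to 71 bp, and the next nearest liver CLOCK centre lay 3859 bp away. The named genes were Chka, choline kinase alpha (18537 bp upstream, chr19:3833212-3833261), Etfa, a subunit of the electron transfer flavoprotein (57150 bp downstream, chr9:55278146-55278195), and Cnot7, a deadenylase of messenger RNA (56842 bp upstream, chr8:41658019-41658068). The others were Mamdc2 (41608 bp upstream), Kctd1 (27549 bp downstream), D18Ertd653e (128964 bp downstream), Gm2862, Gm15904 and 9430029A11Rik. None of these genes is in the fixed lists.

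Liver-only peaks at most 10 kb away had a liver CLOCK peak in 6 of 602 cases (0.997%, 0.367 to 2.16). The odds ratio of distal over nearer peaks was 2.35, with an interval from 0.740 up to 8.09 (p = 0.113 in Fisher's exact test, two-sided, adjusted 0.159), so a difference was not detectable with these counts. Of the 6 nearer peaks, 5 lay 1 to 10 kb away and 1 of 340 lay within 1 kb (0.294%). Distal peaks against those within 1 kb gave 8.01 as the odds ratio (1.10 to 353; p = 0.0234 in Fisher's exact test, two-sided). This comparison was chosen after the counts were seen, rests on 9 and 1 peaks and did not pass after adjustment (Fisher exact test, adjusted p = 0.0546). Peaks identical in the NIH3T3 list had liver CLOCK in 39 of 263 cases (14.8%, 10.8 to 19.7).

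NIH3T3 CLOCK peaks stood within 500 bp of 4 distal peaks (1.03%, 0.281 to 2.61), against 6.54% of all liver BMAL1 peaks. They made up 2 places, each with 2 adjoining liver BMAL1 peaks. One is at Gm17323, 19569 and 19991 bp downstream, at chr1:180299206-180299288 and chr1:180299644-180299693. The other is at Gm10532, 14122 and 14184 bp downstream. Neither place had a liver CLOCK peak or an NIH3T3 BMAL1 peak within 500 bp, and 0 of the 389 peaks had CLOCK of both contexts. For liver-only peaks at most 10 kb away the count was 5 of 602 (0.831%), an odds ratio of 1.24 (0.245 to 5.80; p = 0.744 in Fisher's exact test, two-sided, adjusted 0.744). Joined into places within 1 kb, the counts were 2 of 375 and 4 of 560 and the odds ratio turned to 0.746. A missing CLOCK peak is not read as a site without CLOCK, because the CLOCK lists have their own unknown depth and time.

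**Figure D3:**
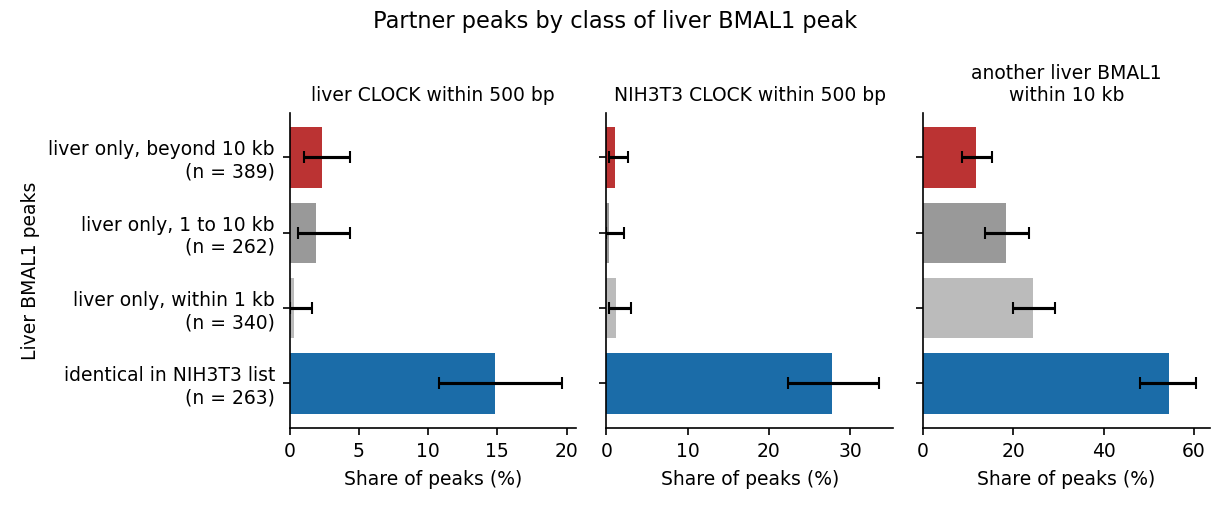
Share of liver BMAL1 peaks (%) with a liver CLOCK centre within 500 bp, an NIH3T3 CLOCK centre within 500 bp or another liver BMAL1 centre within 10 kb, by class of peak. Whiskers are 95% Clopper-Pearson intervals over peaks. Distal peaks (n = 389) stand at 2.31%, 1.03% and 11.6%, and peaks identical in the NIH3T3 list (n = 263) at 14.8%, 27.8% and 54.4%.

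Distal peaks mostly stood alone. Another liver BMAL1 peak lay within 10 kb of 45 of 389 (11.6%, 8.56 to 15.2), against 25.4% of all liver BMAL1 peaks. For liver-only peaks at most 10 kb from a start site the count was 131 of 602 (21.8%, 18.5 to 25.3). The odds ratio was 0.471 (0.319 to 0.686; p = 3.99e-05 in Fisher's exact test, two-sided, adjusted 1.40e-04). The rule itself enters this comparison. A peak at the annotated start site of a distal peak lies more than 10 kb from it and could not count. For nearer peaks such a peak could count, so the test does not separate spacing from the rule. Once peaks with centres within 1 kb were joined, the counts were 18 of 375 places against 40 of 560. The odds ratio was then 0.656 (Fisher exact p = 0.167, unadjusted). Between joined places the direction was thus the same (4.80% against 7.14%), but a difference was not detected.

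The 389 peaks formed 375 places, of which 362 were single peaks, 12 were pairs and 1 was a group of 3. That group was at Mtss1, a regulator of actin at the cell membrane, with peaks 40723, 40949 and 41166 bp downstream, between 58830962 and 58831454 on chromosome 15. The centres in these 13 groups were 62 to 762 bp apart, with a median of 262 bp, and 9 of the 14 gaps were between 204 and 312 bp. The tightest were at Gm10532 (62 bp), Acvr1b, an activin receptor (204 bp), an unnamed gene on chromosome 1 (206 bp), Smarca2, an ATPase of chromatin remodelling (211 bp), and Mtss1 (217 and 226 bp). Neighbouring peaks 50 bp wide at such spacing may be parts of 1 bound region, and the lists do not tell.

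Several genes had distal peaks far apart from each other. Of the 318 genes, 286 had 1 distal peak, 27 had 2 and 5 had 3, namely Irf2bp2, Mtss1, Itpr1, Rgs8 and the transcript ENSMUST00000083601. Itpr1, the receptor for inositol trisphosphate, had peaks 63137 bp upstream and 26310 and 38747 bp downstream, the last counted from another start site than the first pair. Rgs8, a regulator of G protein signalling, had 3 between 11902 and 30265 bp downstream, at chr1:155526497-155526546, chr1:155538386-155538435 and chr1:155544860-155544907.

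Provisional gene names were common in the annotation of the distal peaks. A provisional name (such as a Gm or Rik number, a microRNA or a transcript ID) or none stood at 128 of 389 (32.9%, 28.3 to 37.8), against 21.8% of all liver BMAL1 peaks, and 34 of the 128 had no name. Nearer liver-only peaks had such a name in 105 of 602 cases (17.4%, 14.5 to 20.7). The odds ratio was 2.32 (1.70 to 3.16; p = 4.15e-08 in Fisher's exact test, two-sided, adjusted 2.91e-07). Beyond 50 kb the share was 39 of 103 (37.9%, 28.5 to 48.0). The count follows the symbols in the authors' list, some of which have since been replaced (D18Ertd653e is Ldlrad4 in RefSeq), and does not measure how well a gene is known. This comparison was also chosen after the names were seen.

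Distal peaks lay on all 20 chromosomes that had a liver BMAL1 peak, at shares that varied widely. On chromosome 11 they made up 15 of 105 liver BMAL1 peaks (14.3%, 8.22 to 22.5) and on chromosome 2, 10 of 66 (15.2%, 7.51 to 26.1). On chromosome 1 they were 35 of 74 (47.3%, 35.6 to 59.3), on chromosome 13, 23 of 41 (56.1%, 39.7 to 71.5), and on chromosome 18, 21 of 33 (63.6%, 45.1 to 79.6). The share over all chromosomes was 31.0%. Chromosome X had 1 of 8 (12.5%, 0.316 to 52.7). The chromosomes named were picked for low or high shares and were not tested against each other. Distance to a start site chose the peaks, and the spacing of start sites on each chromosome was not counted.

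**Figure D4:**
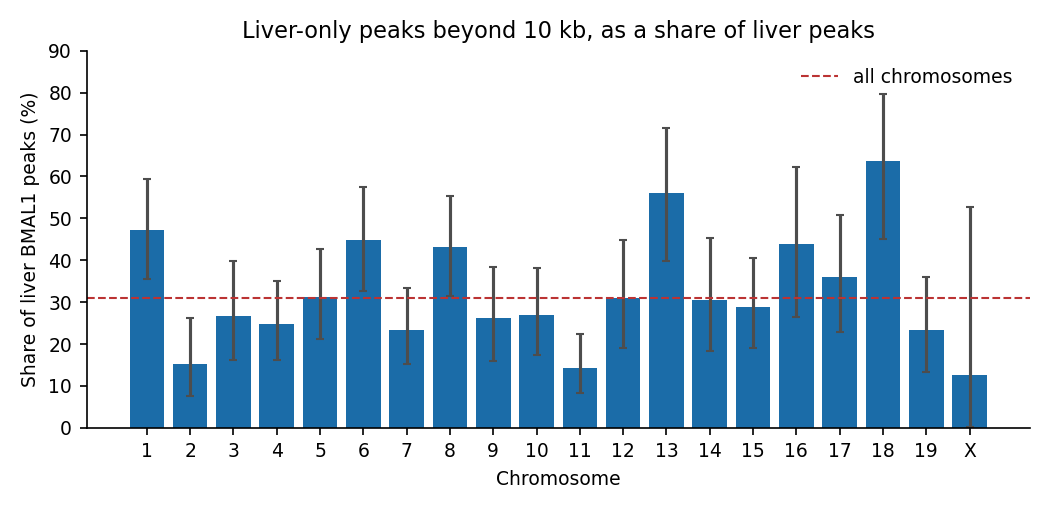
Distal liver-only BMAL1 peaks as a share (%) of all liver BMAL1 peaks on each chromosome, with 95% Clopper-Pearson intervals. The dashed line is the share over all chromosomes, 31.0%. Chromosomes 2 and 11 lie lowest among the autosomes and chromosomes 13 and 18 highest.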

How the data were processed

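Chromatin immunoprecipitation with sequencing gave 4 deposited peak lists of start and end positions, of which the BMAL1 lists also give a gene and a signed distance in bp. Per the submitters' processing notes the build was mm9 and the tools included Bowtie, SAMtools and bedtools. No source used here gives the peak caller, its thresholds or the depth. All 389 peaks were kept with no filter, and 385 of them were 50 bp wide. Starts are printed counting from 1. Partners were centres within 500 bp, promoter peaks lay within 1 kb and places joined centres within 1 kb. Of 318 symbols 281 matched a RefSeq symbol or unique synonym of GRCm38.p6, which was used for names, strands and promoters. Classes of peaks were compared by Fisher's exact test (two-sided) with the conditional odds ratio and its exact 95% interval, and the upstream share by an exact binomial test, adjusted over 7 tests by Benjamini-Hochberg at 0.05. Counting and tests were tested on simulated data. The upper limit for a count of 0 used 3 counts.

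Members, lists and comparisons were chosen with earlier results of these data known, and 2 of the 7 tests after the counts here were seen. The rule for named items took every distal peak of a listed gene (a few are counted but not reported here by name or drawn), genes with 3 or more distal peaks, peaks with a partner within 500 bp in another list, genes with NIH3T3 and liver promoter peaks, the 10 farthest, the 5 on either side of the limit and the 5 tightest groups. The planned E-box count in the peaks could not be made without an mm9 genome, nor could a threshold on scores. Alternatives were other distance limits, partner distances, promoter windows and neighbour distances, joined places, leaving out clock genes and another definition of liver-only, and, added later, leaving out unnamed entries. Libraries of RNA, polymerase II and input were not used here. Computation used SciPy 1.17.1, pandas 2.3.3 and NumPy 2.4.6 in Python 3.11.15, with plots by matplotlib 3.10.9.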

Additional observations from a re-analysis of the deposited data

How the results depend on the processing

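With a limit of 20 kb or 50 kb in place of 10 kb, 248 and 103 peaks met the rule. The odds ratio for NIH3T3 CLOCK turned from 1.24 to 0 at both limits, as none of the 4 peaks lay that far, to 0.746 with joined places and to 0.386 when intervals had to overlap, and no value of it passed the test. With a promoter of 200 bp, the nearer peaks became those 200 bp to 10 kb away. The odds ratio for a promoter peak of the same gene was then 0.342 and passed, unadjusted. That for another BMAL1 peak within 10 kb was 0.656 with joined places and no longer passed. That for liver CLOCK against peaks within 1 kb, chosen after the data were seen, was 2.77 with promoters of 5 kb and no longer passed. It has no finite value without clock genes (0 of 338 nearer peaks) or with promoters of 200 bp (0 of 193). The share upstream was 51.5% beyond 50 kb. All other alternatives that were run kept the direction and the side of the unadjusted threshold. Depth is unknown, so a missing partner limits nothing. No paired analysis was possible because the lists are pooled and carry no value per sample.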

Other observations

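Some neighbouring genes each had a distal peak, and they are named here after their positions were seen. Mogat2, a monoacylglycerol acyltransferase that makes the substrate of Dgat2, had a liver-only peak 12922 bp downstream at chr7:106374158-106374207, which is 56844 bp from the nearest distal peak of Dgat2. Lepr, the leptin receptor, had one 11952 bp upstream at chr4:101378033-101378082, and Leprot, which regulates that receptor's surface level, had one 27173 bp downstream, with centres 30486 bp apart. At such places the authors' annotation splits 1 stretch of chromosome between genes.

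Receptors and factors outside the fixed lists also had distal peaks. They included Prlr, the prolactin receptor (10971 bp upstream), Il6st, the shared receptor subunit gp130 (11524 bp downstream), Vegfa, a growth factor for vessels (19179 bp upstream), and Epas1, which encodes HIF-2alpha (22817 bp downstream). Rhob, a small GTPase, had peaks on both sides, 11286 bp upstream and 45432 bp downstream. Niacr1, the niacin receptor, had 2 downstream, at 11290 and 30430 bp. These genes were picked after their names were seen, so no theme is drawn from them.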
